A study of Mus musculus with 24 samples.

Results

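Apolipoproteins are the protein part of the particles that carry fat and cholesterol in blood. The 10 apolipoprotein genes described here are Apoa1, Apoa2, Apoa4, Apoa5, Apob, Apoc1, Apoc3, Apoe, Apoh and Apom. They were taken from the count table by symbol, and make up 10 of its 15161 genes. The choice of these genes was made with earlier results of these data known. RNA was sequenced from the liver of C57BL6/J mice, a common inbred strain. All were males aged 4 months, in 4 diet groups of 6 libraries. In the elemental control and elemental MR groups the dietary protein was given as free amino acids, and in the casein control and casein MR groups as casein, the main milk protein. MR stands for methionine restriction. Methionine made up 0.86% of the control diets and 0.17% of the MR diets. The casein of the MR diet was labelled as oxidized and that of the control diet was not, so restriction and oxidation cannot be told apart with casein. The libraries are not stated to come from separate mice, so p-values may measure technical spread alone.

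Liver makes most of the apolipoproteins in blood. Apob is the scaffold of very low density lipoprotein, the particle in which hepatocytes export triglyceride. Apoa1 and Apoa2 form high density lipoprotein (HDL), which returns cholesterol to the liver. Apoc3, Apoc1 and Apoa5 act on the breakdown of the particles in blood by lipoprotein lipase and on their uptake, and Apoe is the ligand by which receptors take up the remnants. Apoa4 is made by intestine and, in mice, by liver, and rides on chylomicrons and HDL. Apom carries sphingosine-1-phosphate in HDL, and Apoh, also called beta-2-glycoprotein I, binds acidic phospholipids.

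Libraries held 13.5 to 20.8 M counted reads, and 13441 genes, all 10 apolipoproteins among them, passed the filter on low counts. Levels are given in CPM, counts per M reads of the library size after trimmed-mean scaling, and so differ from shares of reads. Hepatocyte markers, 9 of 10 listed being tested, summed to 123600 to 137000 CPM in elemental control and 105300 to 112100 in elemental MR. The sums were 113300 to 136100 in casein control and 77610 to 86800 in casein MR, so they moved with the diet groups. Of these markers 7 fell and none rose in casein MR, and 3 fell and 1 rose in elemental MR. By the same test, 12.7% of all genes were lower and 10.6% higher in casein MR, and 6.64% and 6.78% in elemental MR. These shares also stand beside the marker counts that follow. Cholangiocyte markers, 5 of 6 listed being tested, had median sums of 51.94 and 24.24 CPM in elemental control and MR and of 58.25 and 29.95 CPM in casein control and MR. Of these 1 fell in elemental MR and 3 in casein MR. In elemental MR 2 of 8 stellate cell and fibroblast markers and 2 of 6 erythroid markers also fell. In casein MR 1 stellate cell and fibroblast marker rose and 1 erythroid marker fell. Of 8 endothelial markers 1 rose in elemental MR and 1 fell in casein MR. The part of these cell types in the apolipoprotein results was not tested. Of the 8 enterocyte markers, Lct, Sis, Alpi, Cdh17, Rbp2 and Muc2 were not among the tested genes. Vil1 and Fabp2 summed to 70.81 to 192.2 CPM over all libraries. Of these 2, 1 was higher and 1 lower in elemental MR, and neither passed the test in casein MR. All 6 skeletal muscle markers were called higher in casein MR and none in elemental MR. They summed to 1382 CPM in the casein MR library C_MR_3438 and to at most 23.72 CPM in the other libraries. In bulk liver, fewer cells of a type and less RNA per cell cannot be told apart.

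The 10 transcripts were among the major products of these livers. Together they took 5.546 ± 0.165% of all counted reads on the elemental control diet and 5.296 ± 0.118% on the elemental MR diet (SD, n = 6 in every group). With casein the shares were 6.015 ± 0.130% on the control diet and 5.436 ± 0.117% on the MR diet. Apoe alone took 2.804%, 2.798%, 3.09% and 3.06% in the same order. Per kilobase of merged exon, the order of mean levels in elemental control began with Apoa2 at 16240 ± 686.1 CPM per kb and Apoe at 14020 ± 631.9. Apoa1 followed at 7917 ± 1036 and Apoc1 at 6492 ± 563.1, and the libraries of these neighbours overlapped. Apoc3 stood at 2690 ± 196.5 and Apoh at 975.8 ± 39.82 CPM per kb, each apart from its neighbours. Apom at 314.5 ± 20.73, Apoa5 at 302.1 ± 27.93 and Apoa4 at 162.1 ± 79.9 overlapped from each to the next. Apob came last at 21.92 ± 1.682 CPM per kb, over an exon length of 13.9 kb. Dividing by exon length assumes reads spread over whole transcripts. How RNA was selected and counted is not given, so the order per kb is uncertain, above all for Apob. In casein MR the order differed in that Apoc1, at 5796 ± 382.6 CPM per kb, came above Apoa1 at 4588 ± 694.5, with overlapping libraries.

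**Figure D1:**
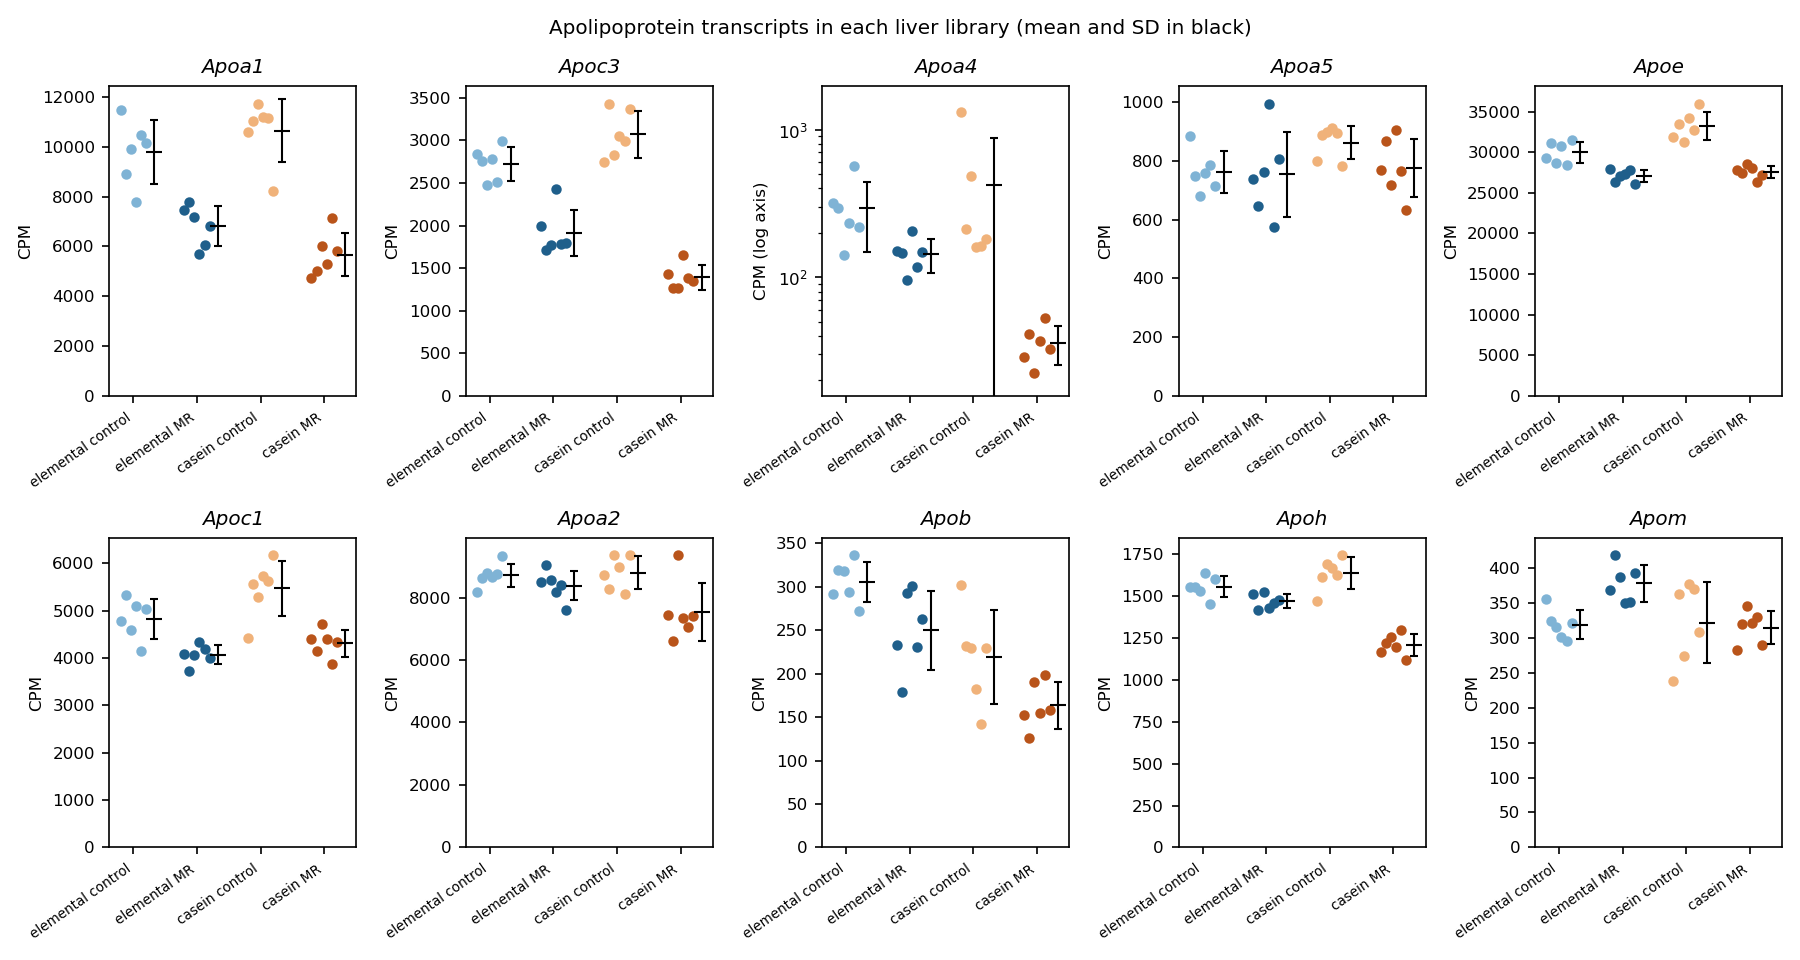
Level of each apolipoprotein transcript in each liver library, in CPM, by diet group (6 points a group). Black marks give the mean and SD, and only the Apoa4 axis is logarithmic, where the lower SD bar of casein control runs off the axis because the SD of 455.7 exceeds the mean of 419.4. For Apoa1, Apoc3 and Apoe the MR points lie below all control points of the same protein source.

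With free amino acids, 3 of the 10 apolipoprotein transcripts were lower in MR and none was higher. Apoa1, Apoc3 and Apoc1 fell, and the other 7 did not pass the test (adjusted p under 0.05 in edgeR's quasi-likelihood test over all genes). Among all 13441 genes, 6.64% were lower and 6.78% higher in this comparison. The median log2 fold change of the 10 was -0.20, against -0.0028 over all genes, and 9 of 10 values were below 0. With casein, 8 of 10 were lower in MR and none was higher, Apoa5 and Apom not passing the test, while 12.7% of all genes were lower and 10.6% higher. The count was also 8 without the library C_MR_3438. The median of the 10 was -0.38, against 0.0097 over all genes. Abundant genes in general were more often lower than higher in casein MR. Of 567 genes at least as abundant as the lowest of the 10, a set chosen after the data were seen, 45.15% were lower and 18.52% higher in casein MR, and 21.69% and 19.05% in elemental MR. Their medians were -0.13 and -0.02.

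The counts depended on how the libraries were scaled. With library totals alone in place of trimmed-mean scaling (TMM), the median of all genes moved to 0.14 in elemental MR and to 0.27 in casein MR on the log2 scale. Under that scaling 2 of the 10 were lower and 1 higher in elemental MR, and 4 were lower and 1 higher in casein MR. All genes then counted 2834 higher and 495 lower in elemental MR, in place of 911 and 892, and 5731 higher and 768 lower in casein MR, in place of 1427 and 1710. Apoa1, Apoc3 and Apoa4 kept their direction in both MR comparisons under each scaling, and so did Apob, Apoc1 and Apoe. Values below are on the TMM scale unless another is named, and a fold change is therefore relative to the bulk of the transcripts.

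**Figure D2:**
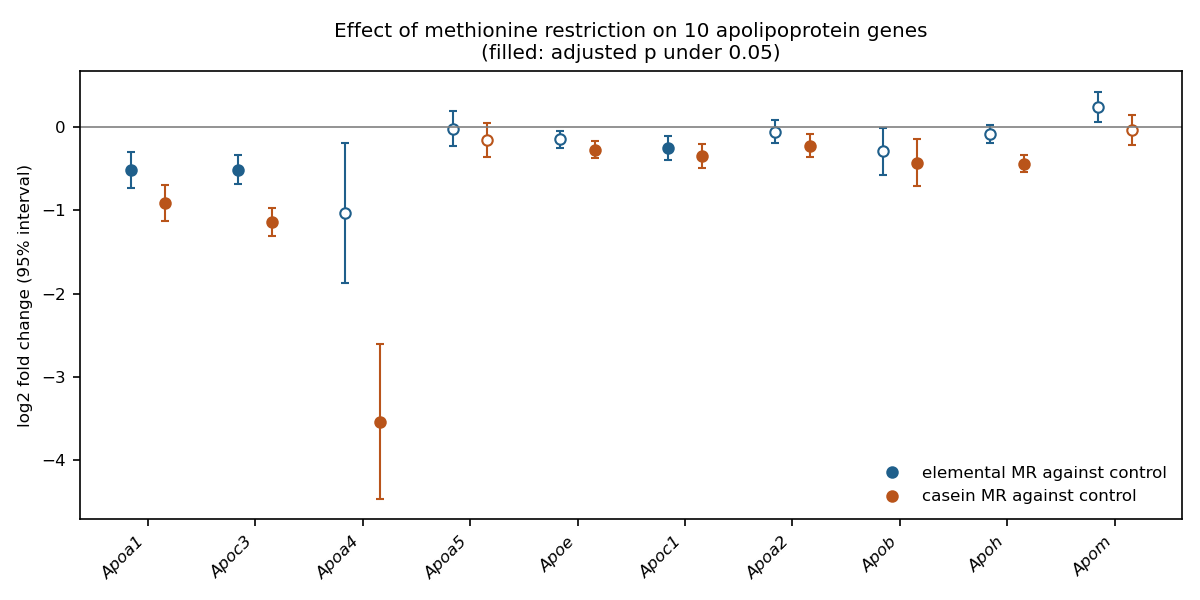
Log2 fold change of each apolipoprotein gene in MR against control, with 95% intervals, for free amino acids (blue) and casein (orange). Filled points passed the test. Of 20 values 19 lie below 0, and with library totals alone Apoa2, Apoa5, Apoh and Apom (elemental) and Apoa2, Apoa5 and Apom (casein) lie above 0.

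Apoa1, the main protein of HDL, ran from 7801 to 11480 CPM (median 10030) in elemental control and from 5713 to 7770 (median 6995) in elemental MR. It ran from 8215 to 11740 CPM (median 11080) in casein control and from 4743 to 7133 (median 5549) in casein MR. All MR libraries lay below all control libraries of the same protein source. Such separation in the lower direction was found for 3.59% of all genes in elemental MR and 6.18% in casein MR. Apoa1 fell by 0.52 ± 0.10 on the log2 scale (SE, adjusted p = 0.001105) in elemental MR and by 0.91 ± 0.10 (adjusted p = 2.065e-07) in casein MR.

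Apoa2, the other structural protein of HDL, held its level more closely. Its means were 8719 ± 368.2 CPM in elemental control and 8383 ± 477.1 in elemental MR (SD, n = 6 per group). With casein they were 8797 ± 529.8 CPM on the control diet and 7534 ± 941.2 on the MR diet. In elemental MR the log2 difference was -0.06 (95% interval -0.20 to 0.08, adjusted p = 0.6604). In casein MR Apoa2 fell by 0.22 ± 0.07 (adjusted p = 0.01568), but with library totals alone its value was 0.030, in the other direction. A fit of these 2 groups alone did not pass (adjusted p = 0.08996). The casein MR libraries overlapped those of casein control through C_MR_3425, at 9347 CPM, and the other 5 lay between 6610 and 7442 CPM.

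Apoa1, Apoc3, Apoa4 and Apoa5 sit side by side on mouse chromosome 9. Their responses ranged from the largest of the 10 to none that passed the test. In this cluster Apoc3 had no matched RefSeq entry, so the 250 bases before the start of Apoa4, Apoa1 and Apoa5 are shown. They were read from RefSeq on GRCm38.p6, 5′ to 3′ on the plus strand, at chr9:46240594-46240843, chr9:46228380-46228629 and chr9:46268358-46268607. Capitals mark matches to the motifs searched below.
Apoa4: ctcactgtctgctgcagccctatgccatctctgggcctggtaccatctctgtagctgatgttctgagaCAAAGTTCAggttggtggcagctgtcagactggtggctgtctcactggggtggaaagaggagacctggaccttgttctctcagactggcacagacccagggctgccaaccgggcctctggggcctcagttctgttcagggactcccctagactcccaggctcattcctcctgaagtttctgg
Apoa1: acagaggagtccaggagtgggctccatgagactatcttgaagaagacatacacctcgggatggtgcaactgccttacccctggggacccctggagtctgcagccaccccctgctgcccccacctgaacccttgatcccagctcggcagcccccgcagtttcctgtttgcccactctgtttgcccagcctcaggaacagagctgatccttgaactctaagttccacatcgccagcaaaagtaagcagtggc
Apoa5: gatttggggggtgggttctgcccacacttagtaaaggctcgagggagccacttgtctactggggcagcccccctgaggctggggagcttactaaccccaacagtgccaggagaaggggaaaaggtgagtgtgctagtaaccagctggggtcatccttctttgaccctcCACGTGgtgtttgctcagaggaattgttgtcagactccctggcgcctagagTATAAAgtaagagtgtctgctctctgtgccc
Motifs were searched on both strands, and shares are of 32851 promoter windows of this length. The HNF4 element was searched as CAAAGTNCA and is held by 1.19% of windows. The half-site of nuclear receptors was searched as AGGTCA, held by 14%. The core of amino acid response elements was searched as TGATGNAA, held by 3.45%. The E-box was searched as CACGTG, held by 6.02%. The TATA box was searched as TATAAA, held by 12.4%. Apoa4 holds CAAAGTTCA beginning 182 bases before its start. Apoa5 holds the E-box beginning 82 bases and the TATA box 31 bases before the start used here. Counted from another RefSeq start of Apoa5, they begin 107 and 56 bases before it. No match was found in the Apoa1 window, and no matches overlapped in these windows. RefSeq entries were found for 8 of the 10 genes, Apoc1 and Apoc3 not being matched.

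Apoc3, an inhibitor of lipoprotein lipase and of remnant uptake, had the smallest adjusted p of the 10 in edgeR's test in both MR comparisons. It ran from 2478 to 2996 CPM (median 2768) in elemental control and from 1719 to 2431 (median 1789) in elemental MR. In casein control it ran from 2747 to 3434 CPM (median 3024), and in casein MR from 1262 to 1655 (median 1367). Neither pair of groups overlapped, and the casein MR libraries also lay below every elemental MR library, as for 2.66% of all genes. Apoc3 fell by 0.51 ± 0.08 on the log2 scale (adjusted p = 1.113e-04) in elemental MR and by 1.14 ± 0.08 (adjusted p = 9.018e-11), or 2.204-fold, in casein MR.

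Apoa4 varied most between libraries and showed the largest difference. In elemental control it ran from 141.7 to 562.4 CPM (median 263.6), and in elemental MR from 95.08 to 207.2 (median 147.6). In casein control it ran from 159.8 to 1315 CPM (median 197.4), and in casein MR from 22.46 to 53.25 (median 34.92). The elemental groups overlapped. All casein MR libraries lay below all libraries of the other 3 groups, and the share of all genes doing so was not counted. The coefficient of variation was 49.3% in elemental control and 108.6% in casein control, where the library C_C_3407 stood at 1315 CPM and the next at 483.7. In elemental MR the log2 difference was -1.03 (95% interval -1.88 to -0.18, adjusted p = 0.1023), and a fit of these 2 groups alone passed the test (adjusted p = 0.01104). In casein MR Apoa4 fell by 3.54 ± 0.45 (adjusted p = 1.055e-06), or 11.64-fold. Without C_C_3407 it fell by 2.73 (adjusted p = 2.358e-07). The antisense genes Gm47528 and Gm10680 overlap 34.9% and 34.8% of the exon bases of Apoa4, and the strand of the libraries is not given, so its reads cannot be told apart from theirs.

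Apoa5, which promotes the action of lipoprotein lipase and so opposes Apoc3, did not pass the test. Its means were 761.8 ± 70.44 CPM in elemental control and 753.6 ± 144.4 in elemental MR (SD, n = 6 per group). With casein they were 861.9 ± 55.62 CPM on the control diet and 776.7 ± 98.41 on the MR diet. The log2 difference was -0.02 (95% interval -0.22 to 0.19) in elemental MR and -0.15 (-0.36 to 0.05) in casein MR, and both lay above 0 with library totals alone. The antisense gene Gm47544 overlaps 20.8% of the exon bases of Apoa5.

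Beside this cluster lie Sidt2, Pafah1b2 and Sik3 on one side and Zpr1 and Bud13 on the other. None of them was called lower in either MR comparison. Over all genes 6.64% were lower and 6.78% higher in elemental MR, and 12.7% and 10.6% in casein MR. With so few genes, none called lower does not set them apart from genes in general. Zpr1, a zinc finger protein gene next to Apoa5, rose by 0.55 ± 0.12 on the log2 scale (adjusted p = 0.002694) in elemental MR and by 0.43 ± 0.12 (adjusted p = 0.009666) in casein MR. Pafah1b2, a subunit of a phospholipase, rose by 0.26 ± 0.08 (adjusted p = 0.01766) in casein MR, and also passed in elemental MR with library totals alone (adjusted p = 0.0266).

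**Figure D3:**
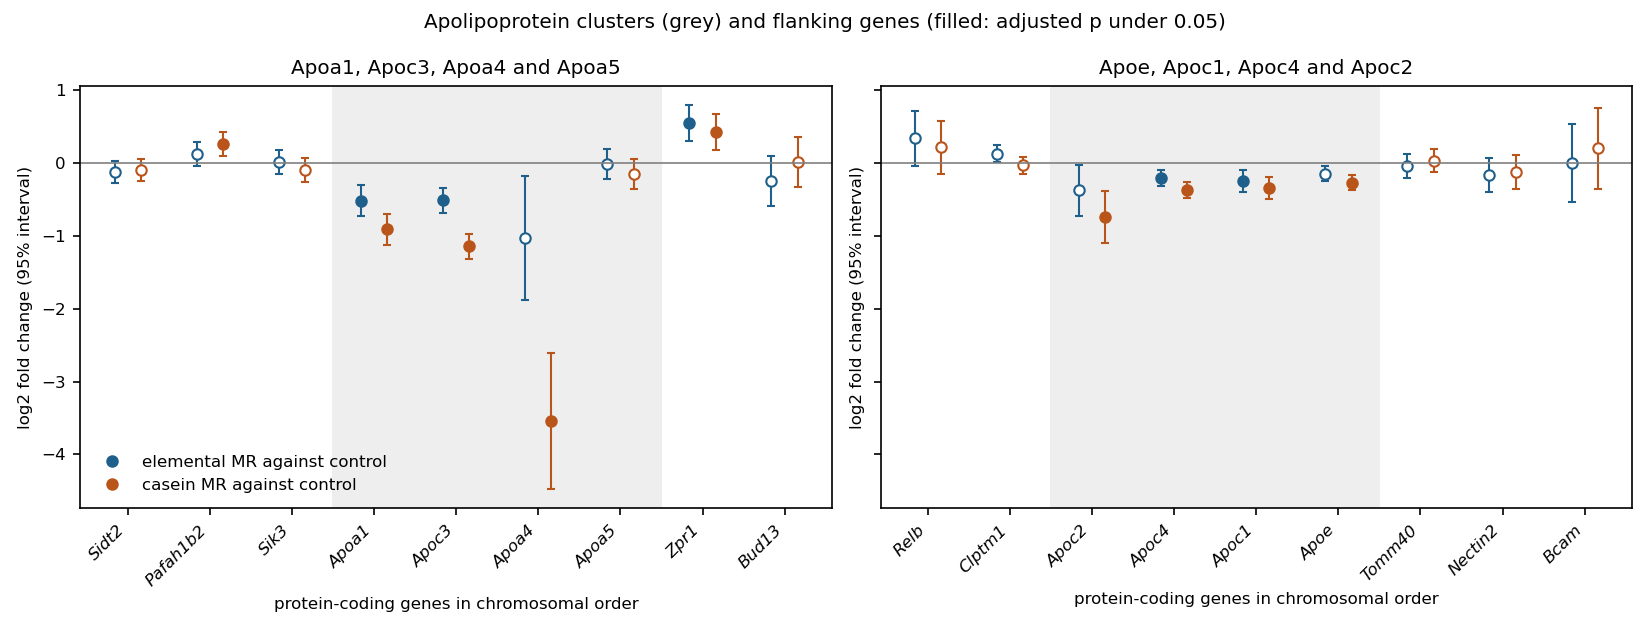
Log2 fold change with 95% interval in MR against control for the genes of both apolipoprotein clusters (grey) and for protein-coding genes beside them, in chromosomal order. Filled points passed the test. In grey, Apoa4 reaches -3.54 in casein MR, Apoa5 is -0.15 and Apoe is -0.27, and beside the clusters the filled points are those of Zpr1 and Pafah1b2, all above 0.

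Apoe, the receptor ligand, lies with Apoc1, Apoc4 and Apoc2 in another cluster. Its coefficient of variation within the groups was 2.721% to 5.146%. It ran from 28380 to 31530 CPM (median 30040) in elemental control and from 26120 to 27970 (median 27190) in elemental MR. In casein control it ran from 31300 to 36000 CPM (median 33090), and in casein MR from 26330 to 28500 (median 27610). Neither pair of groups overlapped. The log2 difference in elemental MR was -0.15 ± 0.05 (adjusted p = 0.05133), and it passed in DESeq2 (adjusted p = 0.00435), in limma-voom (adjusted p = 0.01391) and without E_C_3428 (adjusted p = 0.0392). With library totals alone it was -0.0037 (adjusted p = 0.9646). In casein MR Apoe fell by 0.27 ± 0.05 (adjusted p = 1.444e-04), and with library totals alone this did not pass the test (adjusted p = 0.8138).

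Apoc1, which slows the uptake and the breakdown of lipoproteins, had means of 4830 ± 418.8 CPM in elemental control and 4069 ± 203.8 in elemental MR. With casein the means were 5471 ± 589.1 CPM on the control diet and 4312 ± 284.8 on the MR diet (SD, n = 6 per group), and the ranges of both pairs overlapped. Apoc1 fell by 0.25 ± 0.07 on the log2 scale (adjusted p = 0.01939) in elemental MR. This call was lost without E_C_3417 (adjusted p = 0.05256), without E_MR_3405 (adjusted p = 0.05544) and with library totals alone (adjusted p = 0.2228). In casein MR it fell by 0.34 ± 0.07 (adjusted p = 6.228e-04), which library totals alone did not pass (adjusted p = 0.2649).

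Among the neighbours of Apoe that are not of the 10, Apoc4 fell by 0.21 ± 0.05 (adjusted p = 0.01128) in elemental MR and by 0.37 ± 0.06 (adjusted p = 1.1e-05) in casein MR. Library totals alone passed neither (adjusted p = 0.3512 and 0.06196). Apoc2, the activator of lipoprotein lipase, stood at 6.996 ± 1.454 CPM in elemental control and 4.15 ± 0.663 in casein MR. It fell by 0.74 ± 0.17 (adjusted p = 0.002108) in casein MR, but 79.5% of its exon bases overlap the readthrough gene Gm44805, so its level is uncertain. Relb, Clptm1, Tomm40, Nectin2 and Bcam, beside this cluster, did not pass the test in either MR comparison. With library totals alone, Clptm1 was higher in both MR comparisons, and Relb and Tomm40 in casein MR.

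Apob, the scaffold of triglyceride-rich particles, ran from 272.3 to 336.6 CPM (median 306) in elemental control and from 178.5 to 301.2 (median 248.1) in elemental MR. In casein control it ran from 141.9 to 302.3 CPM (median 229.7), and in casein MR from 126.5 to 198.8 (median 156.6). Both pairs of groups overlapped. The log2 difference was -0.29 ± 0.14 (adjusted p = 0.1805) in elemental MR. In casein MR Apob fell by 0.42 ± 0.14 (adjusted p = 0.02544), which rested on single libraries. Without C_C_3407 the value was -0.30 (adjusted p = 0.1061), and the call was also lost without C_C_3413 (adjusted p = 0.05467), C_C_3437 (0.05242), C_MR_3412 (0.05069) or C_MR_3419 (0.07173). It did not pass in a fit of the 2 groups alone (adjusted p = 0.05788) or with library totals alone (adjusted p = 0.3123).

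Apoh, the phospholipid-binding plasma protein, responded with casein. It ran from 1451 to 1635 CPM (median 1555) in elemental control and from 1419 to 1526 (median 1469) in elemental MR, and these groups overlapped. In casein control it ran from 1467 to 1744 CPM (median 1647), and in casein MR from 1117 to 1294 (median 1207). All casein MR libraries lay below those of the other 3 groups, and the share of all genes doing so was not counted. The log2 difference in elemental MR was -0.08 (95% interval -0.18 to 0.02, adjusted p = 0.3221), and 0.060 with library totals alone. In casein MR Apoh fell by 0.44 ± 0.05 (adjusted p = 1.8e-07).

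Apom, the carrier of sphingosine-1-phosphate, was the exception in direction. It ran from 295.4 to 354.8 CPM (median 318.3) in elemental control and from 349.7 to 418.4 (median 377.4) in elemental MR, with a narrow overlap. In casein control it ran from 238.1 to 376.7 CPM (median 335.9), and in casein MR from 282 to 345.1 (median 320.7). The log2 difference in elemental MR was 0.25 ± 0.09 (adjusted p = 0.06502). It passed the test with DESeq2 (adjusted p = 0.04794), limma-voom (0.0447), a fit of these groups alone (0.009249) and library totals alone (0.39, adjusted p = 8.006e-04). In casein MR the difference was -0.03 (95% interval -0.21 to 0.15, adjusted p = 0.8478), and 0.23 with library totals alone (adjusted p = 0.0191).

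The MR effects themselves were compared by the casein minus elemental difference. Apoa4, Apoc3 and Apoh had the lower effect with casein, and the other 7 did not pass the test. Over all genes 1.56% passed in the lower direction and 0.781% in the higher. The difference was -2.51 ± 0.59 for Apoa4 (adjusted p = 0.01739), -0.63 ± 0.12 for Apoc3 (adjusted p = 0.002562) and -0.36 ± 0.07 for Apoh (adjusted p = 0.004183), on the log2 scale. Without C_C_3407 that of Apoa4 was -1.70 (adjusted p = 0.01979). All 3 passed with library totals alone, at -2.42, -0.51 and -0.24 (adjusted p = 0.03249, 0.01515 and 0.03975). For Apoa1 the difference was -0.39 (95% interval -0.69 to -0.09, adjusted p = 0.2098). For Apom it was -0.28 (-0.53 to -0.02, adjusted p = 0.3407).

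The protein sources were also compared directly, in libraries that the MR comparisons share. On the control diets none of the 10 passed the test in edgeR, where 3 had an unadjusted p under 0.05 and 0.104% of all genes passed, and 1, Apoe, passed in DESeq2 (0.15, adjusted p = 0.04304). Apob had the largest difference in size after Apoa4, at -0.48 ± 0.14 (adjusted p = 0.1652). On the MR diets 4 of the 10 were lower with casein and none higher, where 3.78% of all genes were lower and 2.72% higher. Apoa4 was 3.997-fold lower (adjusted p = 0.003503). The log2 differences were -0.61 ± 0.14 for Apob (adjusted p = 0.005611), -0.46 ± 0.08 for Apoc3 (adjusted p = 6.322e-04) and -0.28 ± 0.05 for Apoh (adjusted p = 4.5e-04). For Apoa4, Apoc3, Apoh and Apom every casein MR library lay below every elemental MR library, as for 2.66% of all genes. Apom itself did not pass the test (-0.26 ± 0.09, adjusted p = 0.07475), but did in limma-voom (adjusted p = 0.04789) and in a fit of these 2 groups alone (adjusted p = 0.02225). Apoa1 was lower without C_MR_3433 (adjusted p = 0.03986) and Apoa2 without C_MR_3425 (-0.23, adjusted p = 0.01818).

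**Figure D4:**
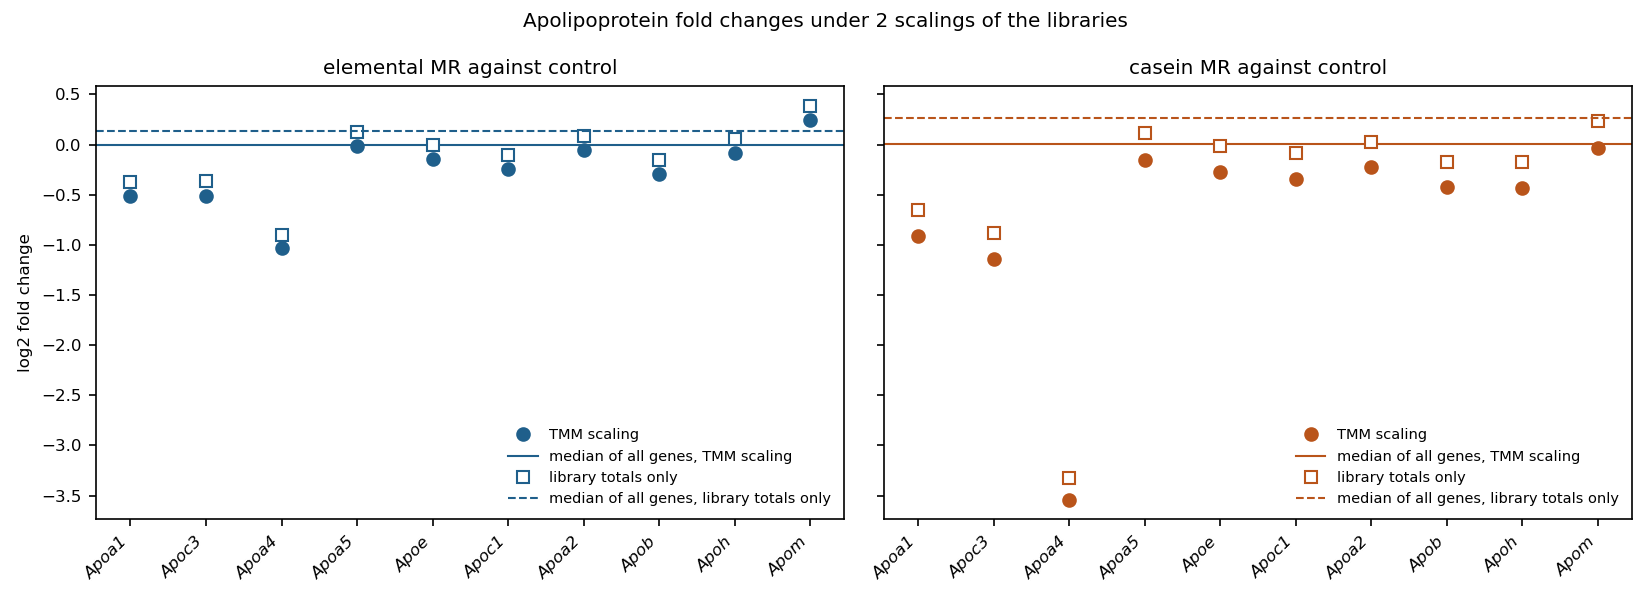
Log2 fold change in MR against control for each apolipoprotein gene under TMM scaling (filled circles) and with library totals alone (open squares), and the median of all genes under each (solid and dashed lines). The whole set shifts with the median of all genes, by 0.14 in elemental MR and 0.27 in casein MR, and with library totals alone Apoa2, Apoa5, Apoh and Apom (elemental) and Apoa2, Apoa5 and Apom (casein) lie above 0.

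Other apolipoproteins and proteins of HDL, 19 of 21 listed being tested, counted 3 higher and 5 lower in elemental MR and 2 higher and 11 lower in casein MR. Their medians were -0.16 and -0.38, and with library totals alone the counts were 5 and 3, then 5 and 6. On the TMM scale 6.78% of all genes were higher and 6.64% lower in elemental MR, and 10.6% and 12.7% in casein MR. Apon, a liver-made apolipoprotein of HDL, fell by 0.52 ± 0.09 (adjusted p = 2.409e-04) and by 0.79 ± 0.09 (adjusted p = 2.065e-07). Clu, also called apolipoprotein J, fell by 0.31 ± 0.07 (adjusted p = 0.003779) in elemental MR and by 0.61 ± 0.07 (adjusted p = 3.153e-07) in casein MR. Apof, which modulates lipid transfer, fell by 0.50 ± 0.07 (adjusted p = 3.751e-06) in casein MR and was -0.16 (adjusted p = 0.1325) in elemental MR. Apol9a rose by 1.46 ± 0.19 (adjusted p = 6.125e-06) and by 0.78 ± 0.19 (adjusted p = 0.002363), with counts that its near-identical copy Apol9b may share.

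Genes for the assembly of Apob particles and the editing of Apob mRNA, all 20 listed being tested, counted 2 higher and 7 lower in elemental MR and 4 higher and 10 lower in casein MR. The medians were -0.07 and -0.18, and with library totals alone the counts turned to 4 higher and 2 lower, then 10 higher and 5 lower. Beside the TMM counts stand 6.78% of all genes higher and 6.64% lower in elemental MR, and 10.6% and 12.7% in casein MR. Ces3b, a carboxylesterase of the endoplasmic reticulum, went from 470.5 ± 73.06 to 234.5 ± 67.78 CPM with free amino acids (SD, n = 6 per group), and fell by 2.13 ± 0.21 on the log2 scale (adjusted p = 2.096e-08) in casein MR. Cideb, which helps to load lipid onto the particle, and P4hb, a subunit of the microsomal triglyceride transfer complex, each fell by 0.56 in casein MR. Sec24a, a coat protein of vesicles leaving the endoplasmic reticulum, fell by 0.47 there. All 4 remained lower in casein MR with library totals alone. In elemental MR the log2 differences were -1.004 for Ces3b (adjusted p = 0.001332) and -0.23 for Cideb (adjusted p = 0.007768). They were -0.25 for P4hb (adjusted p = 0.005058) and -0.27 for Sec24a (adjusted p = 0.004147), so all 4 passed there too. With library totals alone Ces3b still passed in elemental MR (adjusted p = 0.002099). Cideb, P4hb and Sec24a then did not (adjusted p = 0.2572, 0.215 and 0.2059).

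Lipoprotein receptors and their control, 19 of 20 listed being tested, counted 2 higher and 2 lower in elemental MR and 1 higher and 9 lower in casein MR, but 7 and 1, then 7 and 0 with library totals alone. The medians were -0.07 and -0.23. Shares of all genes on the TMM scale were 6.78% higher and 6.64% lower in elemental MR, and 10.6% and 12.7% in casein MR. Vldlr, a receptor for triglyceride-rich particles that carry Apoe, had the largest rise of these lists. It went from 2.747 ± 0.791 to 15.53 ± 2.423 CPM with free amino acids and from 1.679 ± 0.541 to 24.78 ± 3.485 with casein (SD, n = 6 each). The log2 fold changes were 2.50 ± 0.17 and 3.88 ± 0.19, and library totals alone gave 2.64 and 4.14. Lrp2, an endocytic receptor best known in kidney, was near the floor. It stood at 1.247 ± 0.420 CPM in elemental control and 0.190 ± 0.205 in elemental MR. With casein it stood at 1.092 ± 0.477 and 0.387 ± 0.323 CPM, and the lowest library of each MR group held 0. Lrp2 fell by 2.63 ± 0.57 (adjusted p = 0.00235) and by 1.44 ± 0.52 (adjusted p = 0.04339), from few reads. The latter did not pass with library totals alone (adjusted p = 0.06126). Asgr2, a subunit of the asialoglycoprotein receptor, rose by 0.38 ± 0.07 (adjusted p = 6.037e-04) in elemental MR. In casein MR its value was -0.15 (adjusted p = 0.1611), and 0.11 with library totals alone, and the difference of the effects was -0.53 ± 0.10 (adjusted p = 0.00371). Lrpap1, a chaperone of these receptors, fell by 0.42 in casein MR, which library totals alone did not pass (adjusted p = 0.1339).

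Lipases, their control and cholesterol efflux, all 20 listed being tested, counted 3 higher and 1 lower in elemental MR and 4 higher and 3 lower in casein MR. The medians were 0.03 and 0.07, and with library totals alone the counts were 5 and 0, then 10 and 1. Among all genes 6.78% were higher and 6.64% lower in elemental MR on the TMM scale, and 10.6% and 12.7% in casein MR. Lpl, the lipase on which Apoc3, Apoa5 and Apoc2 act, went from 36.68 ± 4.259 to 161.5 ± 60.22 CPM with casein (SD, n = 6 each). Its log2 fold change was 2.14 ± 0.21 (adjusted p = 1.966e-08) in casein MR and 0.06 (adjusted p = 0.8932) in elemental MR, and the difference was 2.08 ± 0.29 (adjusted p = 1.51e-04). Soat2, which esterifies cholesterol for the particles, rose by 0.58 and by 0.66. Pcsk6, a proprotein convertase, rose by 0.37 and by 0.39, and Lmf1, which matures lipases, fell by 0.34 and by 0.51, the former not passing with library totals alone (adjusted p = 0.06358).

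Transcription factors known to act on apolipoprotein genes, all 36 listed being tested, counted 2 higher and 4 lower in elemental MR and 2 higher and 12 lower in casein MR. The medians were -0.04 and -0.10, and with library totals alone the counts turned to 9 higher and 2 lower, then 13 higher and 3 lower. For comparison, 6.78% of all genes were higher and 6.64% lower in elemental MR on the TMM scale, and 10.6% and 12.7% in casein MR. Srebf1, the regulator of fatty acid synthesis, fell by 0.80 and by 0.77. Cebpa, a hepatocyte factor, fell by 0.27 (adjusted p = 0.01002) and by 0.47 (adjusted p = 9.841e-06), and with library totals alone the former did not pass (adjusted p = 0.2203).

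The MR effects differed for 10 of the 114 genes tested from these lists, and for 4 with library totals alone, where 1.56% of all genes were lower with casein and 0.781% higher on the TMM scale. Lower with casein were 1 of the other apolipoproteins and HDL proteins, 4 of the assembly genes, and 1 each of the receptors, the lipases and the transcription factors, while 1 receptor and 1 lipase gene were higher. With library totals alone 1 receptor and 1 lipase gene passed in each direction, and 0 genes of the other 3 lists. On the MR diets 4, 8, 3, 1 and 2 genes of the lists, in the same order, were lower with casein, and 1 receptor and 1 lipase gene were higher, beside 3.78% lower and 2.72% higher over all genes. With library totals alone 2, 2, 2, 1 and 1 were lower and 0, 1, 3, 5 and 0 higher. On the control diets edgeR called 0 of these 114 genes, 24 of them having an unadjusted p under 0.05, and no other tool was run on the lists.

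Apoa4 had the widest span of group means among the 10, 3.08 on the log2 CPM scale. Apoc3 spanned 1.14, and Apoa1 and Apob each 0.91. The genes with the pattern most like that of Apoa4 over the 24 libraries were Dntt, Cenpm, Olig1, Zap70 and Aqp8. Their mean absolute distances from Apoa4, in log2 CPM centred on each gene's own mean, were 0.496, 0.514, 0.570, 0.620 and 0.625. The median over 10158 eligible genes was 1.095. Their log2 fold changes in casein MR ran from -3.06 for Dntt to -1.91 for Olig1.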

How the data were processed

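RNA was measured by sequencing in 24 liver libraries, 6 in each of 4 diet groups given by the labels. The authors deposited raw read counts per Ensembl gene, and a normalized signal that was checked to equal these counts divided by 1 size factor per library (0.745 to 1.32). Only the counts were tested. How reads were aligned and counted, with which strand setting, RNA selection and genome build, is not given in the sources used here. The deposited normalized table gave symbols for 13002 genes and GENCODE for 2119 more.

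Counts were tested with edgeR 4.0.16 in R 4.3.3. Filtering by filterByExpr (by group) kept 13441 genes holding 99.93% of reads. TMM factors ran from 0.903 to 1.14. A single quasi-likelihood fit held all 24 libraries and estimated each group's mean. Benjamini-Hochberg adjustment ran over all genes of a comparison, and an adjusted p under 0.05 was called. Standard errors were derived from the fold change and its F statistic. CPM use the TMM-scaled library size, and log2 CPM a prior count of 2. The fitting code was tested on simulated data. Exon lengths and overlaps came from GENCODE by gene identifier, promoters and gene order from RefSeq. The 24 libraries held 0 identical pairs, and 0 per-sample columns were left unused.

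Alternatives were library totals alone, upper quartile and DESeq2 scaling, no low-count filter, a filter requiring 1 CPM throughout a group, Wald tests in DESeq2 1.42.0, weighted limma-voom (limma 3.58.1), fits of only the compared groups, and leaving out each library. Library totals for the lists and flanking genes were added after the data were seen. The 10 genes and the lists were chosen with earlier results of these data known. All 10 are named, and from each other list the 4 genes with the smallest p in either MR comparison, besides Apoc2, Apoc4, Apof, the genes flanking the clusters and the 5 nearest to Apoa4 (average log2 CPM of at least 1, no predicted or clone name). The results of some of these genes are not reported here.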

Additional observations from a re-analysis of the deposited data

Results flagged for a closer look

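In 3 of 40 combinations of gene and group, 1 library stood apart from the other 5, where chance gives about 1 in 20. For Apoa1 in casein control it was C_C_3437, the lowest at 8215 CPM, and the next stood at 10610. For Apoa2 in casein MR it was C_MR_3425, the highest at 9347 CPM, and the next stood at 7442. For Apoa4 in casein control it was C_C_3407, the highest at 1315 CPM, and the next stood at 483.7. The MR effects with casein and with free amino acids differed by -2.51 on the log2 scale for Apoa4 (adjusted p = 0.01739), by -0.63 for Apoc3 (adjusted p = 0.002562) and by -0.36 for Apoh (adjusted p = 0.004183), all in edgeR's test of the difference itself. For all 3 genes every library of casein MR lay below every library of the other 3 groups. The share of all genes with this pattern was not counted. These 3 were picked by their lower effect with casein, so the separation adds no support. Pairwise, 6.18% of all genes lay wholly below casein control in casein MR, and 2.66% wholly below elemental MR.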

How the results depend on the processing

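No paired analysis was possible because each library has its own number, which no library of another group shares. Over the planned settings other than leaving out a library, the fold changes of the 10 genes kept their direction and their side of the threshold in 365 values, against 8 that reversed, 11 that passed only there and 6 that were lost. Leaving out 1 library gave 693, 17, 3 and 7.

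Of the 10, the count lower ran from 2 to 4 in elemental MR, 7 to 8 in casein MR, 3 to 3 in the difference, 0 to 0 on control diets and 4 to 5 on MR diets when 1 library was left out, with 0 higher throughout. The count higher in elemental MR was 1 (Apom) with library totals alone, DESeq2, limma-voom and the compared groups alone. With library totals alone it was 1 (Apom) in casein MR, with 4 lower, and 1 (Apoc1, 0.19, adjusted p = 0.0457) on MR diets.

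Over all genes, library totals alone gave 2834 higher and 495 lower in elemental MR, 5731 and 768 in casein MR, 227 and 104 in the difference and 1115 and 273 on MR diets. On control diets DESeq2 gave 34 and 39.

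Reversed with library totals alone were Apoa2 (0.084), Apoa5 (0.12) and Apoh (0.060) in elemental MR, Apoa2 (0.030), Apoa5 (0.11) and Apom (0.23) in casein MR, Apoc1 in the difference (0.023) and Apom on control diets (-0.0023). Without 1 library, Apoa5 in elemental MR ran from -0.11 to 0.052 and Apom in casein MR from -0.096 to 0.029. On control diets Apoa2 ran from -0.0067 to 0.035, Apoa4 from -0.29 without C_C_3407 to 0.80, and Apom from -0.039 to 0.086. Apoa5 on MR diets ran from -0.023 to 0.14. Apart from library totals, whose scale moved all genes, the cause was not tested.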

Other observations

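In each of the 4 groups the library highest in Apoa4 was also the highest in Apob, a pattern chosen after the values were seen and not tested. These libraries were E_C_3428, E_MR_3420, C_C_3407 and C_MR_3433, with Apob at 336.6, 301.2, 302.3 and 198.8 CPM. The same library was the lowest of its group in Apom in 3 groups, in Apoc1 in 3 groups, and in Apoe and Apoh in 2 groups each. In 3 of the 4 groups it was also the highest in the summed enterocyte markers Vil1 and Fabp2, at 138.6 CPM for E_C_3428, 192.2 for C_C_3407 and 151.8 for C_MR_3433. Fabp2 was the more abundant of these 2 markers, which moved in opposite directions in elemental MR and between the MR diets. The other enterocyte markers listed were not among the tested genes. C_C_3407 was also the highest of its group in the summed cholangiocyte, adipocyte, stellate cell and lymphocyte and neutrophil markers. Their part in the Apoa4 levels was not tested.

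Kupffer cell and macrophage markers, all 13 listed being tested, had 0 genes past edgeR's test in either MR comparison, and 0 in elemental MR and 2 in casein MR had an unadjusted p under 0.05. They summed to 527.5 to 788 CPM in elemental control, 460.8 to 717 in elemental MR, 466.1 to 786.9 in casein control and 614 to 1023 in casein MR. Their part in the apolipoprotein results was not tested.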
